A study of Homo sapiens with 6 samples.

Results

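The insulin-like growth factor (IGF) genes were examined in CCD18Co cells, an established line of fibroblasts from normal human colon, after silencing of *LTBP2*, which encodes a secreted protein of the extracellular matrix. The genes were taken from the deposited count table by symbol: the ligands *IGF1* and *IGF2*, the receptors *IGF1R* and *IGF2R*, and the binding proteins *IGFBP2* to *IGFBP7*, in all 10 of the 60663 genes listed. One group was transfected for 6 h with an siRNA pool against *LTBP2* (siLTBP2) and the other with a non-targeting pool (siNT), and cells of both groups were collected at 48 h. Each group had 3 libraries, numbered 1 to 3, and the sources used here do not say whether they came from separate cultures, so p-values measure the spread between these libraries, which may be technical. With 1 pool against *LTBP2*, an effect of losing *LTBP2* and another effect of the same pool cannot be told apart. The counts assigned to genes summed to between 44663424 and 53576899 per library.

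IGF1 and IGF2 are secreted growth factors. IGF1R is the tyrosine kinase receptor through which both signal, by way of the PI3K-AKT and RAS-ERK branches, to growth and survival. IGF2R has no kinase: it takes IGF2 up for degradation, and it also sorts lysosomal enzymes that carry mannose 6-phosphate. The IGFBPs are secreted carriers that hold the ligands away from the receptor or deliver them to it, and proteases release the ligand by cutting them. Fibroblasts of many tissues secrete IGFBPs and IGF2, and IGFBP7, which binds the IGFs weakly, is abundant in stromal cells.

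Levels are given as TMM-normalized CPM, read counts scaled to a library of fixed size. A gene was said to differ when its Benjamini-Hochberg adjusted p, over all 16920 genes tested with edgeR's quasi-likelihood test, was below 0.05, and to be deregulated when the adjusted p was below 0.01 and the fold change above 2. The silenced gene checks the labels. *LTBP2* (ENSG00000119681, chromosome 14) stood at 25.0, 23.1 and 21.2 CPM in siNT replicates 1 to 3 and at 6.49, 8.61 and 6.00 CPM in siLTBP2 replicates 1 to 3. This left 30.4% of the siNT level (log2 fold change -1.72, standard error 0.15, adjusted p = 6.6e-05).

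The fibroblast markers *COL1A1*, *COL1A2*, *COL3A1*, *DCN*, *LUM*, *PDGFRA*, *THY1* and *VIM* summed to 9767 to 13026 CPM in siNT and 9972 to 14289 CPM in siLTBP2. By edgeR's test 0 of these 8 genes differed, where 19.3% of all genes tested did. An unadjusted p below 0.05 was found for 1 of the 8, and for 5466 of all 16920 genes. By the likelihood ratio test 1 of the 8 differed, and by DESeq2 1. Immune markers (*PTPRC*, *CD68*, *CD3E*, *CD14*, *MS4A1*) summed to at most 0.57 CPM in any library. Endothelial markers (*PECAM1*, *VWF*, *CDH5*, *CLDN5*) were low and moved with the groups, at 1.52 to 2.01 CPM in siNT and 0.85 to 1.40 CPM in siLTBP2. The 1 tested gene of this list, *VWF*, did not pass edgeR's test (log2 fold change -0.71, adjusted p = 0.065) but was lower by the likelihood ratio test. The epithelial list also moved with the groups, at 40.1 to 52.4 CPM in siNT and 85.5 to 99.1 CPM in siLTBP2. Its defining members *EPCAM*, *CDH1*, *KRT20* and *VIL1* had at most 3 counts in any library, and 2 of the 6 genes were tested. *KRT18*, a keratin also made outside epithelia, differed (log2 fold change 1.15, adjusted p = 2.4e-04). *KRT8* was higher too but did not pass edgeR's test (0.32, unadjusted p = 0.021, adjusted p = 0.085). The smooth muscle list summed to 96.6 to 115 CPM in siNT and 131 to 141 CPM in siLTBP2. *MYH11*, *DES* and *CNN1* had at most 5 counts there, and *ACTG2* differed (0.57, adjusted p = 0.0056) while *ACTA2* did not (0.23, adjusted p = 0.31). The part of these lists in the differences of the IGF genes was not tested. In bulk RNA, fewer cells expressing a gene and less RNA per cell cannot be told apart.

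Of the 10 IGF genes, 8 passed the low-count filter and were tested. Between siLTBP2 and siNT, 4 of the 8 differed, against 19.3% of all genes tested. That share includes genes of low level. When only genes with at least 1 CPM in 3 or more libraries were tested, 3250 of 13070 differed, and 4 IGF genes still did. *IGFBP4* and *IGF2R* rose, where 9.76% of all genes did, and *IGFBP3* and *IGFBP5* fell, where 9.51% did. *IGFBP3* was the 1 deregulated gene of the 8, against 2.57% of all genes, of which 1.27% were lower and 1.29% higher. The 3 siLTBP2 libraries lay wholly above or wholly below the 3 siNT libraries for 5 of the 8, against 37% of all genes. The median log2 fold change of the 8 was 0.23, and that of all genes tested was -0.01. The ligand and signalling receptor genes, *IGF2* and *IGF1R*, did not pass the test.

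**Figure D1:**
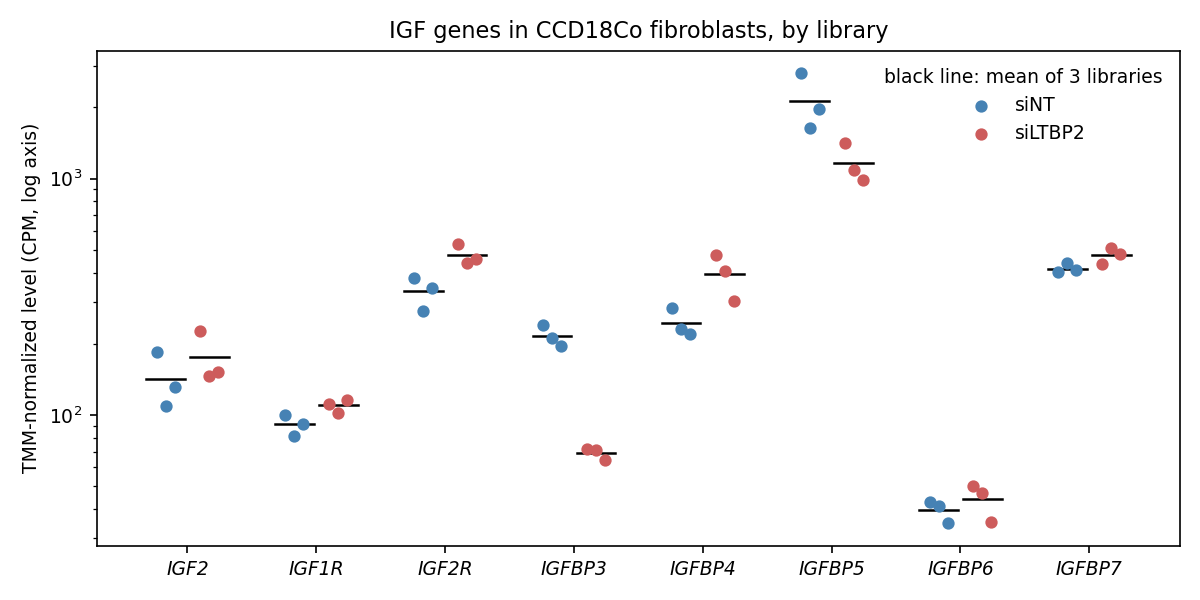
Level of each tested IGF gene (y axis, TMM-normalized CPM on a log scale) in the 3 siNT libraries (blue) and the 3 siLTBP2 libraries (red), from replicate 1 at the left to replicate 3 at the right of each group, with a black line at the group mean. *IGFBP3* and *IGFBP5* lie lower in all 3 siLTBP2 libraries, *IGFBP4*, *IGF2R* and *IGF1R* higher, and the groups overlap for *IGF2*, *IGFBP6* and *IGFBP7*.

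Among the binding proteins, the largest and most repeatable difference was in *IGFBP3*, which encodes the main IGF carrier of serum and lies on the minus strand of chromosome 7 (ENSG00000146674, GRCh38, 45912245 to 45921874, 5 exons in its canonical transcript). It stood at 239, 212 and 195 CPM in siNT replicates 1 to 3. In siLTBP2 replicates 1 to 3 it stood at 71.8, 71.0 and 64.7 CPM. The highest siLTBP2 library was thus far below the lowest siNT library, and the siLTBP2 values were close to each other. The siNT mean of 215 ± 22.1 CPM compares with a siLTBP2 mean of 69.1 ± 3.87 CPM (SD, n = 3 each), so that 32.1% of the level was left. The log2 fold change was -1.64 (standard error 0.10, 95% interval -1.86 to -1.42, adjusted p = 1.0e-05), and by p-value *IGFBP3* ranked 9 among the 16920 genes.

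*IGFBP5*, on the minus strand of chromosome 2 (ENSG00000115461, 216672105 to 216695549, 4 exons), encodes a carrier that also binds the extracellular matrix and had the highest CPM of the IGF genes. Its siNT libraries held 2789, 1637 and 1959 CPM. The siLTBP2 libraries held 1414, 1084 and 983 CPM. The groups were apart, but the siNT libraries spread widely and siNT replicate 1 was far above the other two. The log2 fold change was -0.88 (standard error 0.20, 95% interval -1.31 to -0.44, adjusted p = 0.0106), a level 1.83-fold lower. *IGFBP5* missed both thresholds for a deregulated gene narrowly and passed them without siLTBP2 replicate 1 (-1.04, adjusted p = 0.0056). Without siNT replicate 1 the log2 fold change was -0.64 (adjusted p = 0.025), and the adjusted p reached 0.047 at most over 14 alternatives. In GENCODE 44, *DIRC3-AS1* overlaps 7.81% of its exon bases on the other strand, with at most 101 counts per library.

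*IGFBP4* went the other way. It encodes a carrier that mostly restrains IGF action until it is cut by the protease PAPP-A, and it lies on the plus strand of chromosome 17 (ENSG00000141753, 40443450 to 40457725, 4 exons). Its level was 284, 230 and 221 CPM in siNT replicates 1 to 3. It was 476, 405 and 303 CPM in siLTBP2 replicates 1 to 3. The groups did not overlap, although siLTBP2 replicate 3 was only a little above siNT replicate 1. The log2 fold change was 0.69 (standard error 0.16, 95% interval 0.34 to 1.03, adjusted p = 0.0119), a level 1.61-fold higher. Without siNT replicate 2 it was 0.65 with an adjusted p of 0.060, the highest of 14 alternatives, and the lowest was 6.5e-09.

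The counts of these genes can be set against each other within a library, where scaling cancels out. For each *IGFBP3* count there were 1.19, 1.09 and 1.13 *IGFBP4* counts in siNT replicates 1 to 3, and 6.63, 5.71 and 4.68 in siLTBP2 replicates 1 to 3. For each *IGFBP4* count there were 9.83, 7.11 and 8.87 *IGFBP5* counts in siNT and 2.97, 2.67 and 3.25 in siLTBP2. These ratios were chosen after the values were seen and were not tested.

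*IGFBP6* and *IGFBP7* did not pass the test. *IGFBP6* (chromosome 12), whose protein prefers IGF2 over IGF1, stood at 42.9, 41.2 and 34.8 CPM in siNT and at 50.1, 46.6 and 35.3 CPM in siLTBP2. Replicate 3 was the lowest library of both groups, and the groups overlapped (log2 fold change 0.15, 95% interval -0.15 to 0.45, adjusted p = 0.49). *IGFBP7* (chromosome 4) stood at 402, 437 and 409 CPM in siNT and at 436, 511 and 482 CPM in siLTBP2. siLTBP2 replicate 1 fell just under siNT replicate 2, so these groups overlapped too (0.19, 95% interval -0.01 to 0.40, adjusted p = 0.18). Both intervals leave out a doubling of the level, a log2 fold change of 1. Exons on the other strand, of *POLR2B* (log2 fold change 0.14, adjusted p = 0.23) and *IGFBP7-AS1* (0.25, adjusted p = 0.45), overlap 24.8% of the exon bases of *IGFBP7*, and how reads there were counted is unknown. *IGFBP2* (chromosome 2) was near 0, with counts of 0, 1 and 0 in siNT and 0, 6 and 0 in siLTBP2, and was not tested. It lies 7668 bases from *IGFBP5*, the IGF gene of highest CPM.

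Of the ligands, *IGF2* was the one measured. *IGF1* (chromosome 12) had counts of 2, 5 and 1 in siNT and 1, 1 and 0 in siLTBP2, too few to test, and 92.0% of its exon bases lie under *HELLPAR* on the other strand. *IGF2* (ENSG00000167244, minus strand of chromosome 11, 2129112 to 2158391, 4 exons) stood at 185, 109 and 131 CPM in siNT and at 227, 147 and 152 CPM in siLTBP2. Replicate 1 was the highest library of both groups, and the 2 groups overlapped. The log2 fold change was 0.31 (standard error 0.20, 95% interval -0.14 to 0.75, adjusted p = 0.34). When genes of low counts were kept in the fit, it was 0.29 (adjusted p = 0.045), and over 14 alternatives the adjusted p ranged from 0.0010 to 0.83. In GENCODE 44, 45.1% of the exon bases of the canonical *IGF2* transcript are shared with other genes of the same strand (*INS-IGF2*, ENSG00000284779 and ENSG00000240801), each listed at 0 counts in all 6 libraries. How reads on shared bases were assigned is not given in the sources used here, so the *IGF2* level is uncertain.

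The receptors were both at higher mean levels in siLTBP2. *IGF2R* (ENSG00000197081, plus strand of chromosome 6, 159969082 to 160113507, 48 exons) stood at 381, 276 and 344 CPM in siNT replicates 1 to 3. It stood at 526, 441 and 455 CPM in siLTBP2 replicates 1 to 3. The groups did not overlap, and the log2 fold change was 0.51 (standard error 0.13, 95% interval 0.23 to 0.79, adjusted p = 0.0179), a level 1.42-fold higher. Without siLTBP2 replicate 1 it was 0.43 with an adjusted p of 0.062, and over 14 alternatives the adjusted p ranged from 2.6e-06 to 0.062. *IGF1R* (ENSG00000140443, plus strand of chromosome 15, 98648539 to 98964530, 21 exons) stood at 100, 81.7 and 91.4 CPM in siNT and at 111, 102 and 116 CPM in siLTBP2. Its groups did not overlap either, by a narrow margin, and the test was not passed (0.27, standard error 0.10, 95% interval 0.06 to 0.48, adjusted p = 0.074). Over 14 alternatives the adjusted p of *IGF1R* ranged from 0.0030 to 0.19, so this call depends on the fit. *INSR*, the insulin receptor, which can pair with IGF1R, had mean levels of 42.2 ± 3.31 CPM and 46.0 ± 1.81 CPM in siNT and siLTBP2 (SD, n = 3 each, log2 fold change 0.13, adjusted p = 0.38).

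**Figure D2:**
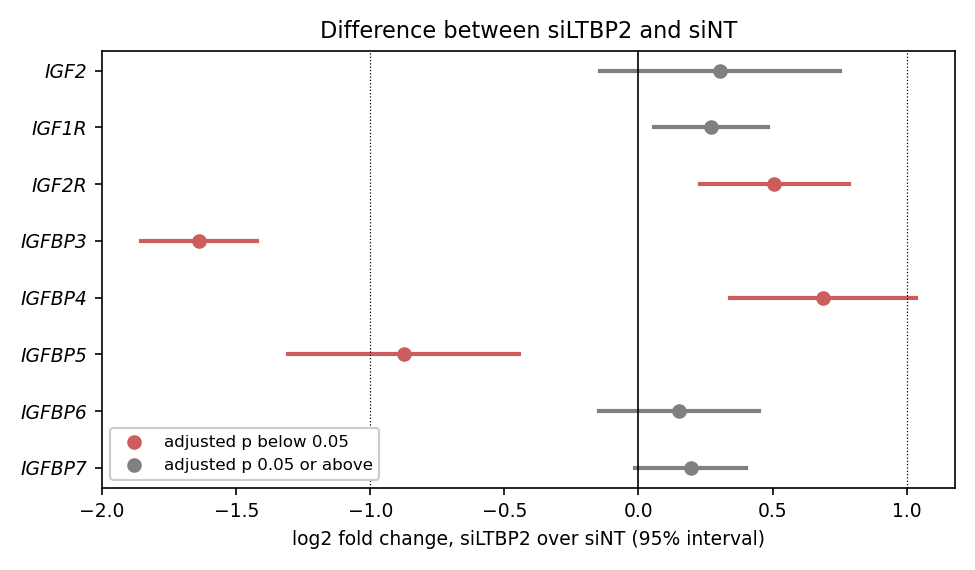
Log2 fold change of siLTBP2 over siNT (x axis) for the 8 tested IGF genes, with the 95% interval as a line, in red where the adjusted p was below 0.05 and in grey otherwise, and with dotted lines at a fold change of 2 in either direction. *IGFBP3*, at -1.64, is the one gene whose whole interval lies beyond a dotted line.

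To compare levels between genes, CPM were divided by the length of the canonical transcript in kilobases. On this scale the siNT order was *IGFBP5* at 341 ± 95.3, *IGFBP7* at 291 ± 13.2, *IGFBP4* at 111 ± 15.4, *IGFBP3* at 82.5 ± 8.47 and *IGFBP6* at 41.9 ± 4.48 CPM per kb (SD, n = 3). Below them came *IGF2* at 25.4 ± 7.03, *IGF2R* at 23.7 ± 3.79 and *IGF1R* at 7.45 ± 0.76 CPM per kb. Among neighbours in this order, *IGFBP5* and *IGFBP7* overlapped between libraries, and so did *IGF2* and *IGF2R*, while the others were apart. In siLTBP2 the order was *IGFBP7* at 334 ± 26.4, *IGFBP5* at 186 ± 36.2, *IGFBP4* at 179 ± 39.5 and *IGFBP6* at 46.5 ± 8.21 CPM per kb. *IGF2R* followed at 33.7 ± 3.26, *IGF2* at 31.4 ± 8.09, *IGFBP3* at 26.5 ± 1.48 and *IGF1R* at 8.98 ± 0.58 CPM per kb. *IGFBP7* was here above *IGFBP5* in every library, *IGFBP5* and *IGFBP4* overlapped, and so did *IGFBP6* with *IGF2R*, *IGF2R* with *IGF2*, and *IGF2* with *IGFBP3*, while the other neighbours were apart.

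The summed level of the binding proteins *IGFBP2* to *IGFBP7* was 994, 798 and 812 CPM per kb in siNT and 828, 792 and 694 CPM per kb in siLTBP2. The groups overlapped, and the means of 868 ± 109 and 772 ± 69.3 gave a two-sided p of 0.4 (exact permutation test, where 0.1 is the smallest p that 3 libraries against 3 allow). The difference of siLTBP2 from siNT, -96.5 CPM per kb, was -116.7 with the groups apart when libraries were scaled by total counts only (exact permutation p = 0.1). It was -33.6 without siNT replicate 1 and -57.9 without siLTBP2 replicate 3 (exact permutation p = 0.8 each). Without the division by length the sum is mostly *IGFBP5*, and the mean difference of siLTBP2 from siNT was -900.1 CPM (exact permutation p = 0.1).

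Within this pool, on the scale of CPM per kb, the shares of 3 genes were apart between the groups. *IGFBP3* was 9.21%, 10.2% and 9.20% of the summed level in siNT and 3.32%, 3.43% and 3.57% in siLTBP2. *IGFBP5* was 45.0%, 32.9% and 38.7% in siNT and 27.4%, 21.9% and 22.7% in siLTBP2. *IGFBP4* was 13.0%, 13.1% and 12.3% in siNT and 26.1%, 23.2% and 19.8% in siLTBP2. For these 3 genes the shares did not overlap between the groups (exact permutation test, two-sided, p = 0.1 each, adjusted p = 0.17 over 5 shares), a test that cannot reach 0.05 with 3 libraries against 3. *IGFBP7* had a mean share of 34.0% ± 5.17 in siNT and 43.6% ± 6.04 in siLTBP2, and *IGFBP6* had 4.85% ± 0.53 and 5.99% ± 0.55 (SD, n = 3). Both overlapped between the groups (exact permutation p = 0.2 each, adjusted p = 0.2). This depends on the division by length. Without it the share in siLTBP2 was higher by 8.47 percentage points for *IGFBP7* and 0.72 for *IGFBP6*, with the groups apart (exact permutation p = 0.1 each). Shares add up to a whole, so the larger share of *IGFBP7* goes with the smaller share of *IGFBP5* and is not a separate measurement.

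**Figure D3:**
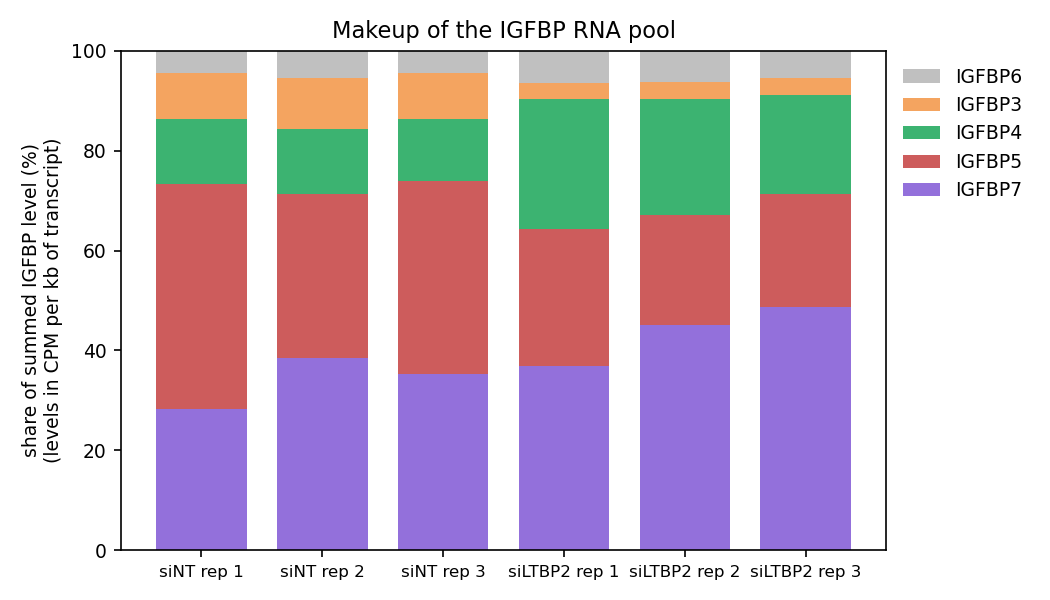
Share of each binding protein gene in the summed IGFBP level (y axis, percent, from levels in CPM per kb of transcript) in each of the 6 libraries, with *IGFBP2* too small to see. In the siLTBP2 bars the segments of *IGFBP3* and *IGFBP5* are shorter, and that of *IGFBP4* is taller, than in any siNT bar.

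Promoters are shown for the 3 binding protein genes that differed, *IGFBP3* and *IGFBP5* as those that fell and *IGFBP4* as the one that rose. Each sequence is from RefSeq on GRCh38.p14 and runs 5′ to 3′ from 250 bases before to 50 bases after RefSeq's start of the gene. For *IGFBP3* that is the start of the canonical transcript, which lies inside the longer span that GENCODE 44 gives the gene. Of 5 motifs searched on both strands, capitals mark any match. One was TATAAA, the TATA box. Another was its variant TATATA, which can overlap it. The GC box was searched as GGGCGG. The CCAAT box was searched by these letters. The last was CAGAC, the core of a SMAD site.
IGFBP3, chr7:45921223-45921522, minus strand: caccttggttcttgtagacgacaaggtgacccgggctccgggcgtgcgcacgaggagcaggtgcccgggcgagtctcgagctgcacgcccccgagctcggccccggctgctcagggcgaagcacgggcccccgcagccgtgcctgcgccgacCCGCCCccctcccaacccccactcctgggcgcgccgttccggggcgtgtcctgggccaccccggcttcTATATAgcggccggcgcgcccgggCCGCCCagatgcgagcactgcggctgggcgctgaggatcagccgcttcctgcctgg
IGFBP5, chr2:216695500-216695799, minus strand: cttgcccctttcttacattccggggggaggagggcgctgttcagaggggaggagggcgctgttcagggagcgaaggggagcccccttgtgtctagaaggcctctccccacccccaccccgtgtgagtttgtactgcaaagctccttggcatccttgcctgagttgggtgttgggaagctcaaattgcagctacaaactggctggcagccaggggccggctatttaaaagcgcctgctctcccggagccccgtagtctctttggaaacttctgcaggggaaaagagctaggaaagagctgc
IGFBP4, chr17:40443200-40443499, plus strand: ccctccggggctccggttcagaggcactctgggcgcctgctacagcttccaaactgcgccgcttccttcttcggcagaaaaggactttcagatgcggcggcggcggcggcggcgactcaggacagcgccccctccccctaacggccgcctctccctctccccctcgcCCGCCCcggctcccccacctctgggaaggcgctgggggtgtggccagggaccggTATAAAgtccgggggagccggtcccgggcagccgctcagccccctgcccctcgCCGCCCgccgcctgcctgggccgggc

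The *IGFBP3* promoter holds TATATA once and the GC box at 2 places, and that of *IGFBP4* holds TATAAA once and the GC box at 2 places. None of the 5 motifs is in the *IGFBP5* window as an exact match. Other variants of the motifs were not searched, so a related element there is not excluded. Of 35116 promoters of the same length, 3.99% hold TATATA and 11.5% hold TATAAA. The GC box is in 45.0% of them, the CCAAT box in 34.6% and the SMAD core in 45.3%. The promoters of *IGFBP3* and *IGFBP4*, which moved in opposite directions, have a GC content of 74.7% and 74%, and that of *IGFBP5* has 59%.

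The 3′ UTRs were examined for the word GCACCCA, which was known from earlier results of these data to be more frequent in genes lower in siLTBP2. Of 12302 tested coding genes with a 3′ UTR, 1454 (11.8%) carried it on the transcript strand. Among these carriers 27.9% were lower and differed, against 9.34% of the other genes, and the median log2 fold changes were -0.15 and 0.02. Carriers and other genes were not matched for the length or base content of the 3′ UTR. Of the 10 IGF genes, 5 held 1 site each. The sites of the 4 tested carriers are shown with that of *LTBP2*, because both IGF genes that fell are among them. The word is in capitals, with 10 bases on either side, on GRCh38.
IGFBP3, chr7:45913558-45913584, minus strand: ctcgagcacaGCACCCAgacttcatgc
IGFBP5, chr2:216675492-216675518, minus strand: gtgttcatctGCACCCAccgagccagg
IGF2, chr11:2131445-2131471, minus strand: gcacacgcaaGCACCCAcctgcacaca
IGF1R, chr15:98958982-98959008, plus strand: agcaggccggGCACCCAtcctgagagg
LTBP2, chr14:74500045-74500071, minus strand: atgggatacaGCACCCAtctacaaaga

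Of the 4 tested carriers, *IGFBP3* and *IGFBP5* fell, while *IGF2* and *IGF1R* had log2 fold changes of 0.31 and 0.27 and did not pass the test. The fifth carrier, *IGF1*, was not tested. *IGFBP4*, *IGF2R*, *IGFBP6* and *IGFBP7*, the tested genes with no site, had log2 fold changes of 0.69, 0.51, 0.15 and 0.19. Since the word came from these same libraries, its carriers give no independent support. The sequences of the siRNAs were not used here, and the part of the word in these differences was not tested.

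The other genes of the pathway were taken as 10 lists of 88 genes, of which 74 were tested. Of these 15 rose and 9 fell, so that 32.4% differed, against 19.3% of all genes tested (9.76% higher and 9.51% lower), and their median log2 fold change was 0.08. The lists were written with earlier results of these data known.

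Proteases that cut IGFBPs, and the inhibitors of these proteases, made up a list in which 4 of 6 tested genes differed, 2 higher and 2 lower, where 19.3% of all genes differed. *STC1* encodes stanniocalcin 1, an inhibitor of PAPP-A. It stood at 152, 114 and 192 CPM in siNT and at 441, 422 and 438 CPM in siLTBP2, each more than 2 times the level of any siNT library (log2 fold change 1.51, standard error 0.16, adjusted p = 1.7e-04). *ADAM12*, a metalloprotease that cuts IGFBP3 and IGFBP5, rose from 4.59 ± 0.28 to 10.3 ± 1.04 CPM (SD, n = 3, 1.17, adjusted p = 2.8e-04). *HTRA1*, a serine protease with IGFBP5 among its substrates, fell from 16.1 ± 3.39 to 10.5 ± 2.09 CPM (-0.62, adjusted p = 0.033). *PAPPA2*, which encodes a protease of IGFBP3 and IGFBP5, fell from 0.57 ± 0.24 to 0.16 ± 0.08 CPM (-1.81, adjusted p = 0.018), with only 5 to 38 counts per library. The protease of IGFBP4 itself, *PAPPA*, went from 249 ± 72.0 to 276 ± 53.2 CPM (adjusted p = 0.66), and its second inhibitor, *STC2*, had 337 ± 74.8 and 287 ± 41.5 CPM (adjusted p = 0.36).

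Downstream of the receptor, the adaptors and negative regulators had 4 of 13 tested genes lower and 0 higher by edgeR's test (1 higher at an unadjusted p below 0.05, and 1 higher by the likelihood ratio test and by DESeq2), where 9.51% of all genes were lower and 9.76% higher. *SHC1*, one of the adaptors that couple IGF1R to RAS, stood at 374, 356 and 367 CPM in siNT and at 210, 232 and 203 CPM in siLTBP2 (log2 fold change -0.77, standard error 0.09, adjusted p = 2.6e-04). Its libraries were close within each group and far apart between them. In the PI3K-AKT-mTOR branch 6 of 21 genes rose and 0 fell by edgeR's test, the likelihood ratio test and DESeq2 (1 lower at an unadjusted p below 0.05), against 9.76% and 9.51% of all genes. They were led by *RPS6KB1*, the S6 kinase, from 40.8 ± 4.64 to 62.2 ± 4.20 CPM (SD, n = 3, 0.61, adjusted p = 0.0026). Among the others were *PIK3R3*, *RICTOR* and the phosphatases *PHLPP1* and *PHLPP2*, which act against AKT. In the RAS-ERK branch 2 of 9 genes rose, where 9.76% of all genes did, among them *MAP2K1*, which encodes the kinase MEK1 (0.53, adjusted p = 0.0099). Of 10 tested FOXO factors and FOXO target genes 0 differed by edgeR's test, where 19.3% of all genes did. An unadjusted p below 0.05 was found for 3 of the 10, and for 5466 of all 16920 genes. By the likelihood ratio test 1 of the 10 differed, and by DESeq2 1. The smallest adjusted p by edgeR's test was that of *BCL6* (0.31, adjusted p = 0.076).

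The regulators and neighbours of *IGF2* RNA had 4 of 6 tested genes higher, against 9.76% of all genes. *HMGA2*, a chromatin protein known to raise *IGF2* transcription, stood at 163, 166 and 246 CPM in siNT and at 740, 812 and 978 CPM in siLTBP2 (log2 fold change 2.14, standard error 0.17, adjusted p = 4.5e-05). The lowest siLTBP2 library was thus about 3 times the highest siNT library. *IGF2BP3*, which encodes a protein that binds *IGF2* mRNA, rose from 265 ± 20.3 to 457 ± 14.3 CPM (SD, n = 3, 0.79, adjusted p = 2.9e-04). *IGF2BP2* (0.36, adjusted p = 0.010) and the antisense gene *IGF2-AS* (0.49, adjusted p = 0.022) were higher as well. *IGF2-AS* overlaps the span of *IGF2* on the other strand without sharing exon bases of its canonical transcript, and whether the counting used strand is unknown. *IGF2* itself was among the genes that did not pass the test. *H19*, the imprinted neighbour of *IGF2*, had at most 12 counts in any library.

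Among genes of mannose 6-phosphate sorting, *M6PR*, the second receptor for this tag beside IGF2R, stood at 84.8, 77.6 and 92.9 CPM in siNT and at 131, 135 and 151 CPM in siLTBP2 (0.71, standard error 0.10, adjusted p = 7.2e-04). Its groups did not overlap, and both receptors of the tag were thus higher. *GNPTAB* (-0.37, adjusted p = 0.020) and *GNPTG* (-0.34, adjusted p = 0.036), subunits of the enzyme that makes the tag, fell, and the other 4 tested genes of this list did not pass the test. Of its 7 tested genes 1 was thus higher and 2 were lower, against 9.76% and 9.51% of all genes. Of the cell surface partners of IGFBPs 1 of 3 tested genes differed, where 19.3% of all genes did. This was *TMEM219*, which encodes a receptor for IGFBP3 and fell from 37.4 ± 2.31 to 29.3 ± 1.87 CPM (SD, n = 3, -0.35, adjusted p = 0.024). *LRP1* (-0.12, adjusted p = 0.75) and *CAV1* (0.05, adjusted p = 0.74) did not pass the test. The remaining ligands and binding proteins (*INS*, *INS-IGF2*, *IGFBP1*, *IGFBPL1* and *IGFALS*) were too low to test.

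**Figure D4:**
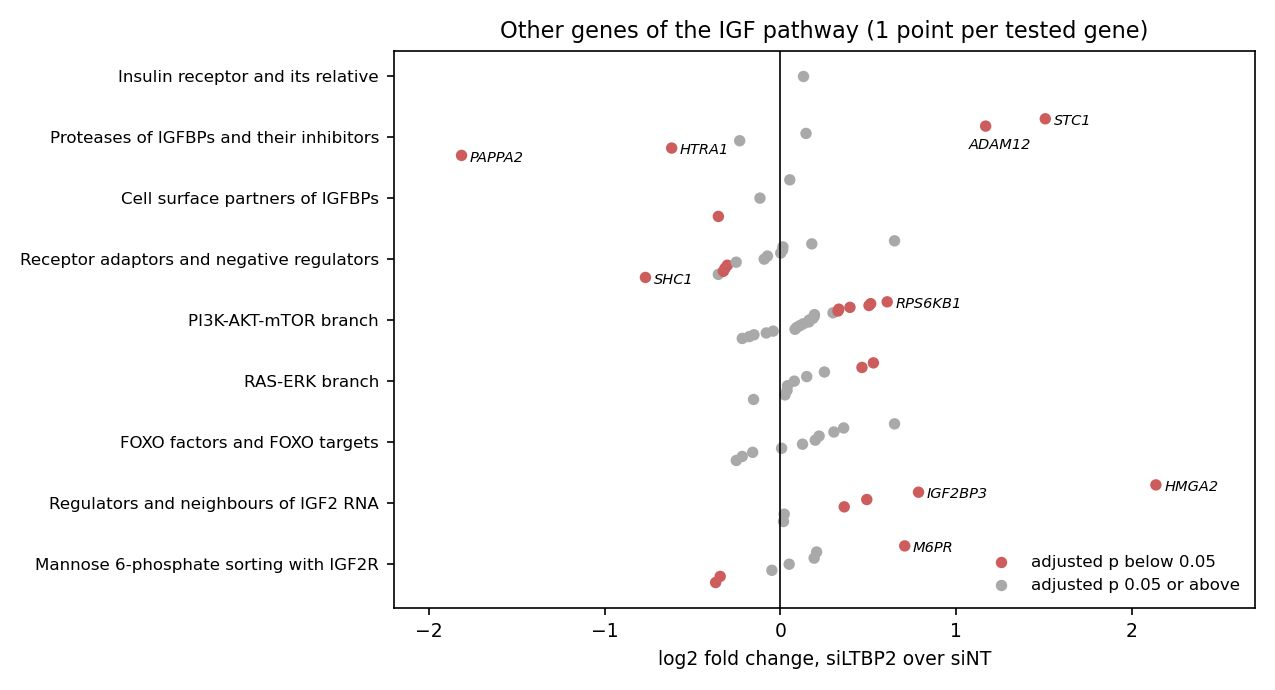
Log2 fold change of siLTBP2 over siNT (x axis) for each tested gene of 9 lists of the IGF pathway (y axis, 1 point per gene), in red where the adjusted p was below 0.05 and in grey otherwise, with names for red genes changed by more than 1.5-fold. *HMGA2* and *STC1* lie farthest to the right and *PAPPA2* farthest to the left, and the red points of the PI3K-AKT-mTOR and RAS-ERK branches are all to the right of 0.

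The genes whose pattern was most like that of *IGFBP3*, the IGF gene of smallest p, were found by the root mean square distance of log2(CPM + 0.5), centred on the siNT mean, over the 6 libraries and among 9396 tested genes of at least 10 CPM. They were *ARSB* (distance 0.089 on the log2 scale), *RDH10* (0.11), *DCAF7* (0.125), *LTBP2* itself (0.129) and *GFRA1* (0.135). Their log2 fold changes were -1.69, -1.73, -1.72, -1.72 and -1.60. With 1 contrast and 3 libraries in each group, this likeness is mostly a like size of difference.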

How the data were processed

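RNA was sequenced from 3 siNT and 3 siLTBP2 libraries, made by a stranded kit with ribosomal RNA depletion. The authors aligned the reads to GRCh38 with STAR 2.7.1a and deposited raw counts per gene made with HTSeq 0.11.2 (submitters' processing notes). The sources used here do not give the Ensembl release or the strand and overlap settings of the counting, so reads of overlapping genes may be split or dropped. GENCODE 44 holds 60462 of the 60663 listed genes, 95.7% of them with an identical start, all 10 IGF genes included. GENCODE 44 gave positions, lengths and 3′ UTRs of at least 50 bases, and RefSeq gave promoters for 8 of the 10.

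Counts were tested with the two-sided quasi-likelihood test of edgeR 4.0.16 (R 4.3.3) after TMM scaling, using the genes kept by filterByExpr and no replicate block, with Benjamini-Hochberg adjustment over all 16920 genes tested. The standard error is the log2 fold change over the square root of the statistic. The script was tested on simulated data. Alternatives were the likelihood ratio test (the test in the methods of the study), DESeq2 1.42.0, other scalings and filters, a replicate block and leaving out each library. The IGF genes, lists, word and motifs were chosen with earlier results of these data known. Beside IGF genes, the text names list genes that differed by over 1.5-fold (else the list's smallest adjusted p), overlapping genes, markers and the 5 genes most like *IGFBP3*. Others were named after their values were seen. The values of some list genes are not reported here.

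Replicates of 1 group differed by more than sampling noise (chi-square per degree of freedom 24.6 to 48.1). Deviations from the group mean correlated by 0.28, 0.07 and 0.40 between libraries of the same number, and by -0.37 to 0.10 between libraries of different numbers. The sources used here do not say that a number marks a shared culture or day, so the main fit treated the libraries as unpaired. Whether they are paired is not settled by these values. Low counts limit precision for *IGF1*, *IGFBP2* and *PAPPA2*.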

Additional observations from a re-analysis of the deposited data

How the results depend on the processing

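Every alternative kept the direction of *LTBP2* and of the 8 tested IGF genes, and *IGFBP3* and *IGFBP5* differed under all 14. The calls that changed were those of *IGF2* with no low-count filter (0.29), *IGF2R* without siLTBP2 replicate 1 (0.43) and *IGFBP4* without siNT replicate 2 (0.65). The cause was not tested. With the replicate number as a block, *IGF2* (0.31, adjusted p = 0.0010), *IGF1R* (0.27, adjusted p = 0.0030) and *IGFBP7* (0.19, adjusted p = 0.041) differed as well. The block gave 7 IGF genes and 6131 genes in all that differ, against 4 and 3261. Every library but siNT replicate 2 correlated best with the library of its own number in the other group (0.28, 0.07 and 0.40), a hint from the data and not from the design.

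Leaving out each library in turn gave 3 to 4 IGF genes that differ and 1 to 2 deregulated, the 2 without siLTBP2 replicate 1. It gave 2158 to 2781 genes that differ, the fewest without siLTBP2 replicate 2, and 308 to 405 deregulated. Log2 fold changes ranged from 0.07 to 0.54 for *IGF2*, 0.39 to 0.61 for *IGF2R*, 0.53 to 0.85 for *IGFBP4* and 0.20 to 0.34 for *IGF1R*. They ranged from 0.05 to 0.29 for *IGFBP6*, 0.14 to 0.26 for *IGFBP7*, -1.04 to -0.64 for *IGFBP5*, -1.70 to -1.56 for *IGFBP3* and -1.89 to -1.61 for *LTBP2*. With no low-count filter 680 genes were deregulated, against 434.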
